A study of Homo sapiens with 18 samples.

Results

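CASP1 and 9 further inflammasome genes (CASP4, CASP5, CARD16, NLRP3, NLRP1, PYCARD, GSDMD, IL18 and AIM2) were followed in bulk RNA-seq libraries of 3 human multiple myeloma cell lines. They are 10 of the 62703 genes in the deposited count tables. The set was chosen by measured values of these libraries: CASP1 read counts were lower where NEAT1 counts were higher in each line. The CASP1 difference between gapmeR labels is therefore given as a description without a test. The other 9 members act in the same pathway. They and the gene lists below were also chosen with earlier results of these data known. Their p-values and counts of calls are therefore not independent of that choice. AMO1, H929 (NCI-H929) and LP1 are established plasma cell lines grown from malignant plasma cells. Each had 3 libraries labelled SCR, a gapmeR with a scrambled sequence, and 3 labelled gN1E, a gapmeR directed at the long non-coding RNA NEAT1, giving 18 libraries in 6 groups. A gapmeR is an antisense oligonucleotide that guides RNase H to its target transcript, here taken up without a transfection reagent for 48 h (gymnosis, the uptake of naked oligonucleotides). No untreated cells and only a single NEAT1 gapmeR were part of the design, and the labels do not say that replicates were separate cultures, so p-values measure only the spread between these samples, which may be technical. Counted read pairs per library ranged from 28061606 to 69937229.

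The inflammasome is a protein platform that assembles in the cytosol when a sensor such as NLRP1, NLRP3 or AIM2 meets a danger signal or foreign DNA. The adaptor ASC, encoded by PYCARD, links most sensors to pro-caspase-1, the CASP1 product, which then cleaves the precursors of IL-1β and IL-18 and the pore-forming protein gasdermin D (GSDMD). Caspase-4 and caspase-5 bind bacterial lipopolysaccharide directly and also cut gasdermin D, and CARD16 encodes a CARD-only protein that resembles the CASP1 prodomain. The pathway is best known from monocytes and macrophages, and plasma cells are not among its classical sites.

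NEAT1, the target of the gapmeR, went against the labels. In the AMO1 libraries labelled SCR its level was 75.7, 78.8 and 90.8 CPM (read counts relative to library size, scaled by the trimmed mean of M-values, TMM), and in those labelled gN1E it was 473, 553 and 517 CPM. The H929 label gave 79.8, 72.7 and 79.1 CPM in SCR and 554, 464 and 542 CPM in gN1E libraries, and the LP1 label 135, 173 and 189 CPM against 656, 667 and 829 CPM. In all 3 lines every library labelled gN1E held more NEAT1 than every library labelled SCR. The names inside the count tables exchange SCR with gN1E in every line and also exchange H929 with LP1. Libraries are therefore called by their GEO labels throughout, and every direction below is for libraries labelled gN1E, those with more NEAT1, relative to libraries labelled SCR. In edgeR's quasi-likelihood test the NEAT1 log2 fold change was 2.66 in AMO1, 2.74 in H929 and 2.14 in LP1 (Benjamini-Hochberg adjusted p = 5.1e-13, 3.11e-14 and 0.0269). In the LP1 label that p exceeded 0.05 when SCR replicate B (0.176) or gN1E replicate A, B or D (0.111, 0.0886 and 0.0578) was left out, with log2 fold changes of 2.17, 2.20, 2.19 and 2.01.

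The libraries carried the RNA of plasma cells. All 8 plasma cell markers passed the filter of at least 10 reads in at least 1 library in each line, and SDC1 (syndecan-1) averaged 10664 CPM in AMO1, 12930 CPM in H929 and 1288 CPM in LP1. Immunoglobulin constant genes differed by line label. IGHA1 averaged 7746 CPM in AMO1, 8821 CPM in H929 and 8.12 CPM in LP1, IGHG1 averaged 1.47, 707 and 0.145 CPM, and IGKC averaged 10361, 9124 and 6932 CPM. SDC1 rose (log2 fold change 0.22) and CD38 fell (-0.21) in H929 (edgeR adjusted p = 0.0196 and 0.00406). The SDC1 p exceeded 0.05 without SCR replicate A (0.0652), B (0.051) or C (0.0555) or gN1E replicate B (0.0932) or C (0.0818). Which of the exchanged line names is right was not tested.

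CASP4, CASP5, CASP1 and CARD16 lie together on chromosome 11 (hg38), all on the minus strand, over 159 kb from 104942866 to 105101431. CASP4 spans 104942866 to 104969366, CASP5 spans 104994235 to 105023168, CASP1 (ENSG00000137752.25) spans 105025397 to 105035250, and CARD16 spans 105041326 to 105101431. CARD16 shares a near-identical coding exon with CASP1, in which 264 of 267 aligned bases are the same. A stretch of 120 bases of that exon is shown because it limits how far the counts of both genes can be told apart. Both are 5′ to 3′ on the minus strand, with the 2 differences in this stretch in capitals, for CASP1 at chr11:105034355-105034474 and for CARD16 at chr11:105044539-105044658.
CASP1: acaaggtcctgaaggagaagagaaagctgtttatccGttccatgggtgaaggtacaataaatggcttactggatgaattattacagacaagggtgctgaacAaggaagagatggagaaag
CARD16: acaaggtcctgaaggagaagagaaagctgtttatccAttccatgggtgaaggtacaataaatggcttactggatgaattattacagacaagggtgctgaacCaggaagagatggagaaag
The longest run of identical bases between any annotated transcript of CASP1 and any of CARD16 was 144 bases. The pseudogene CASP1P2, inside the CARD16 span, matched a CASP1 transcript at 88.4% of 1020 aligned bases. Read pairs that map to more than 1 place were not counted, so CASP1, CARD16 and CASP1P2 counts are uncertain in their shared parts. The annotation gives 0 exon bases of CASP1, CASP4 or CASP5 that another gene shares on the same strand. Elsewhere, AIM2 (ENSG00000163568.16) spans 159061599 to 159187843 on chromosome 1, NLRP1 spans 5499415 to 5619424 on chromosome 17, and PYCARD spans 31201486 to 31203450 on chromosome 16.

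CASP1 was lower in the libraries with high NEAT1, which is the pattern that chose it. In the AMO1 label its level was 6.3, 6 and 6.59 CPM in libraries labelled SCR and 4.48, 4.08 and 3.9 CPM in those labelled gN1E. In the H929 label the values were 5.3, 6.35 and 5.71 CPM against 4.71, 3.99 and 4.27 CPM. In the LP1 label they were 1.86, 1.64 and 1.95 CPM against 0.779, 0.851 and 1 CPM. The groups did not overlap in any line. The log2 fold changes, with no test, were -0.59 (SE 0.12) in AMO1, -0.43 (SE 0.12) in H929 and -1.03 (SE 0.2) in LP1, changes of -33.5%, -25.8% and -51.2% from the SCR level, or levels 1.5, 1.35 and 2.05 times as high in libraries labelled SCR as in those labelled gN1E. The LP1 values rest on 35 to 117 read pairs a library, against 119 to 427 in AMO1 and 213 to 324 in H929. In bulk RNA, fewer cells that express a gene and less RNA per cell cannot be told apart.

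**Figure D1:**
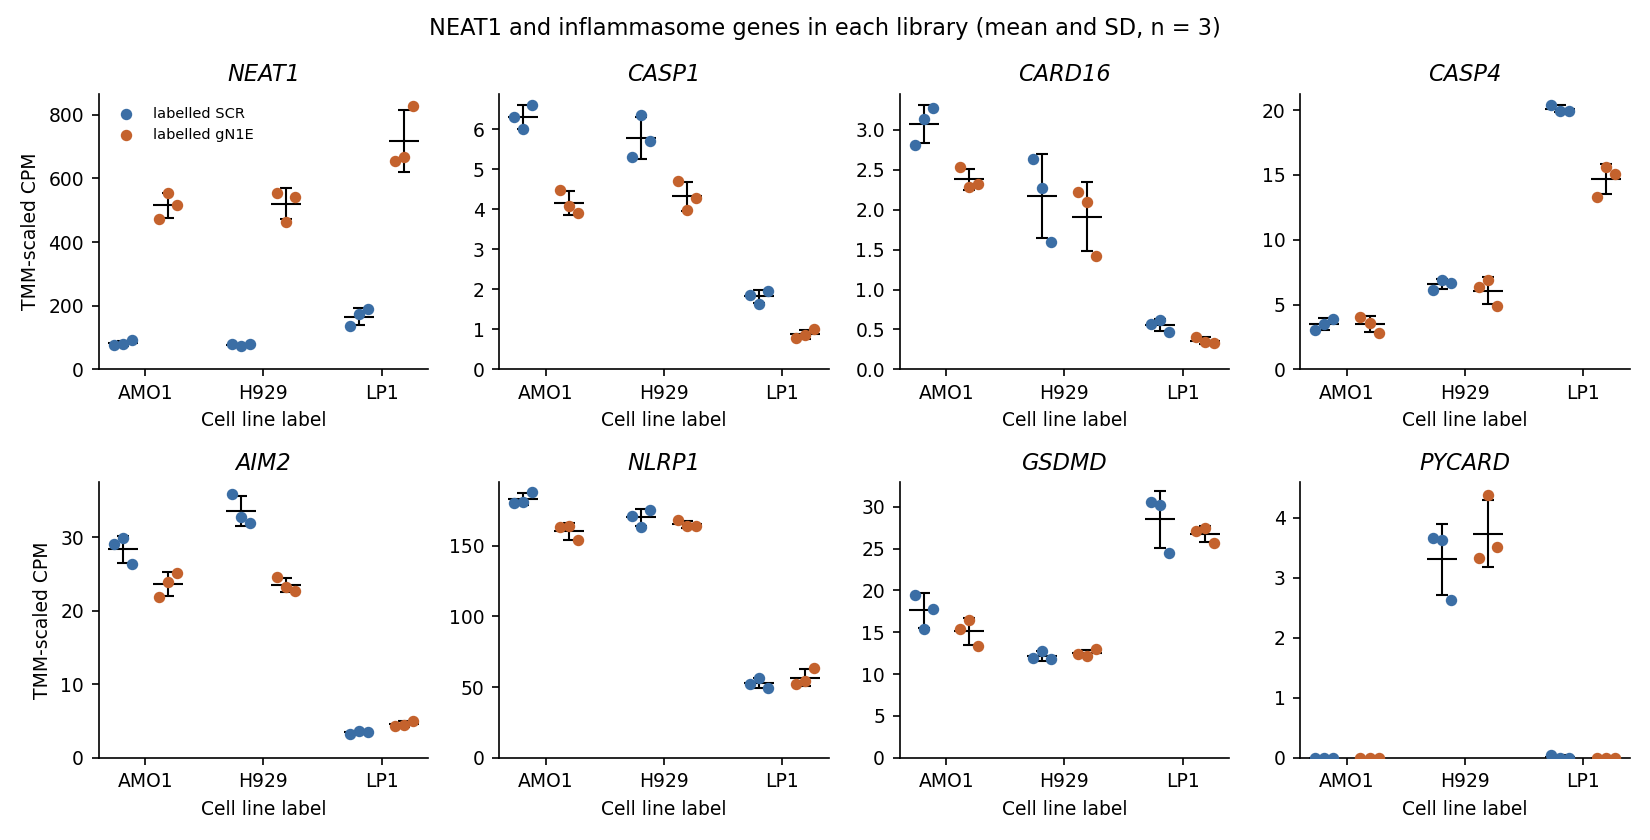
TMM-scaled CPM (y axis, from 0) of NEAT1 and 7 inflammasome genes in each library by cell line label (x axis), with points for single libraries and bars for the mean and SD of 3. CASP1 in the LP1 label lies between 0.779 and 1 CPM in libraries labelled gN1E and between 1.64 and 1.95 CPM in those labelled SCR, while AIM2 is lower in gN1E libraries of the H929 label and higher in those of the LP1 label.

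Of the other members, 5 of 9 passed the count filter in AMO1, 6 in H929 and 5 in LP1. Past an adjusted p of 0.05 were 0 of 5 in AMO1, 1 of 6 in H929 and 1 of 5 in LP1, and both calls were in the direction of CASP1. Among all genes tested, 2.06% were called in AMO1, 5.47% in H929 and 1.43% in LP1, and 0.419%, 1.77% and 0.777% were called lower. For the AMO1 count of 0, 4 of the 5 members had an unadjusted p under 0.05 in edgeR, limma-voom also called 0, DESeq2 called 1 and the fit with the replicate letter as a block, which the AMO1 libraries share in pairs, called 2 (NLRP1 and AIM2). With that block 1394 of all AMO1 genes were called, 618 of them lower, against 473 and 96. The shares of all genes also move with single libraries. In AMO1 the count fell to 261 without SCR replicate D, 288 without gN1E replicate C and 254 without gN1E replicate D, and its lower calls ranged from 19 to 246. In H929 1286 calls became 709 without SCR replicate A and 701 without gN1E replicate B, with 165 to 410 lower. In LP1 332 calls became 123, 87 and 780 without SCR replicate A, B and D and 143, 176 and 202 without gN1E replicate A, B and D, with 34 to 491 lower. The called member was the DNA sensor AIM2 in H929 and the neighbouring caspase CASP4 in LP1. With 1 call in each line, the calls alone do not show that the lines differ. Tests of a difference between lines are given below for each gene.

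CASP4, which encodes the lipopolysaccharide-binding caspase-4, fell in the LP1 label. Its level there was 20.4, 19.9 and 19.9 CPM in libraries labelled SCR and 13.3, 15.6 and 15.1 CPM in those labelled gN1E, with no overlap. The log2 fold change was -0.44 (95% confidence interval -0.59 to -0.28, edgeR adjusted p = 0.00442), and over 14 alternative fits it ranged from -0.48 to -0.37 with adjusted p from 1.06e-05 to 0.0364. In the AMO1 label CASP4 was at 3.03, 3.51 and 3.92 CPM in SCR and 4.03, 3.57 and 2.81 CPM in gN1E libraries, which overlapped. In H929 it was at 6.13, 6.89 and 6.64 CPM against 6.36, 6.9 and 4.9 CPM, again with overlap. The log2 fold changes were 0.01 in AMO1 (interval -0.32 to 0.34), where the sign turned to -0.03 with library size as the only scaling, and -0.13 in H929 (interval -0.37 to 0.11). The response of CASP4 in LP1 did not pass the test of a difference from the other lines: it was -0.47 against AMO1 (adjusted p = 0.259) and -0.34 against H929 (adjusted p = 0.455).

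CARD16, the CARD-only neighbour, had lower means in all 3 lines without a call in any. In AMO1 its level was 2.81, 3.13 and 3.27 CPM in libraries labelled SCR and 2.53, 2.28 and 2.32 CPM in those labelled gN1E, with no overlap. In LP1 it was 0.571, 0.623 and 0.469 CPM against 0.408, 0.34 and 0.334 CPM, also without overlap but on 14 to 36 read pairs a library. In H929 the values were 2.63, 2.27 and 1.59 CPM against 2.22, 2.1 and 1.42 CPM, which overlapped. The log2 fold changes were -0.36 (interval -0.69 to -0.03), -0.59 (interval -1.25 to 0.08) and -0.22 (interval -0.62 to 0.19) in AMO1, LP1 and H929, with edgeR adjusted p = 0.359, 0.46 and 0.632. The CASP1P2 pseudogene gave -0.45 in AMO1, -0.37 in H929 and -0.26 in LP1 (adjusted p = 0.315, 0.327 and 0.862), but over the alternatives CASP1P2 ranged from -0.49 to -0.17 in H929 and from -0.59 to 0.33 in LP1, where its sign turned. The CARD16 value in H929 ranged from -0.38 to -0.03, and was -0.04 without SCR replicate A and -0.03 without gN1E replicate C. These intervals are wide enough to hold both 0 and the CASP1 values in H929 and LP1, and the shared exon adds to the uncertainty.

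CASP5, between CASP4 and CASP1, was at 0 to 4 reads in every library and was not tested. CASP12 was at 0 to 2 reads.

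**Figure D2:**
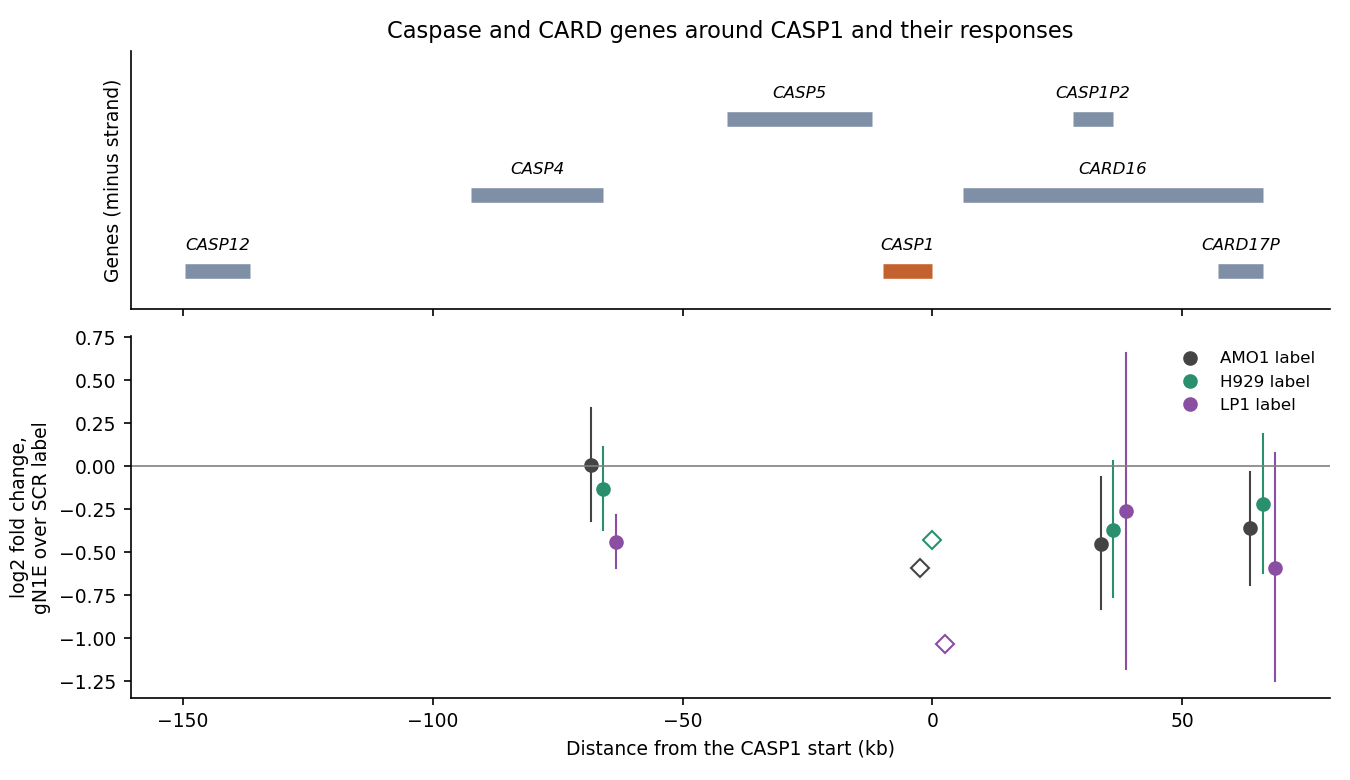
Genes around CASP1 by distance from its start (x axis, kb; all on the minus strand) in the upper panel, and in the lower panel their log2 fold change (y axis), libraries labelled gN1E over those labelled SCR, placed at each gene's start with 95% confidence intervals. Open diamonds are CASP1, shown without an interval because its values chose the set; CASP4 in the LP1 label, at -0.44, has an interval below 0.

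AIM2, the sensor of cytosolic double-stranded DNA, fell in the H929 label. Libraries labelled SCR held 35.9, 32.8 and 32 CPM and those labelled gN1E held 24.6, 23.2 and 22.7 CPM, with a wide gap between the groups. The log2 fold change was -0.53 (interval -0.66 to -0.40, edgeR adjusted p = 8.49e-07), and it was called in all 14 alternative fits, with adjusted p from 2.84e-14 to 0.000104. In AMO1 the level was 29.1, 29.9 and 26.4 CPM against 21.9, 23.9 and 25.1 CPM, without overlap. The log2 fold change there was -0.27 (interval -0.43 to -0.11), with an adjusted p of 0.0944 that became 0.00966 with the replicate letter as a block, over a range of 0.00966 to 0.265 in the alternatives. In LP1 AIM2 was at 3.24, 3.63 and 3.58 CPM in libraries labelled SCR and 4.36, 4.47 and 5.03 CPM in those labelled gN1E, so the groups were again separate but in the opposite order. The log2 fold change in LP1 was 0.43 (interval 0.17 to 0.69, adjusted p = 0.0962), and it passed the threshold in 1 of 14 alternatives, the joint fit of all libraries (0.0319).

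The AIM2 response differed between lines. In the joint fit it was 0.68 higher (log2) in LP1 than in AMO1 (edgeR adjusted p = 0.00201) and 0.92 higher in LP1 than in H929 (adjusted p = 1.36e-05), and both differences were called in all 22 alternatives. Between H929 and AMO1 the difference was -0.25 (interval -0.46 to -0.04, adjusted p = 0.696). AIM2 was the 1 member called in each comparison of responses with LP1, and CASP4, CARD16, NLRP1 and GSDMD were not called. PYCARD, with 0 reads in AMO1 and 3 in LP1, has no response to compare there. In H929 against AMO1 edgeR called 0 of these members, with 1 (AIM2) at an unadjusted p under 0.05, and limma-voom and DESeq2 also called 0. Of all genes, 0.741% had a different response in LP1 than in AMO1 and 0.874% in LP1 than in H929. Between H929 and AMO1 edgeR called 0 of 26436 genes (0%), with 1771 at an unadjusted p under 0.05. There limma-voom called 0 and DESeq2 called 5. Without AMO1 SCR replicate C edgeR called 5, and without AMO1 gN1E replicate A it also called 5. The joint fit had no block for the replicate letters that the AMO1 libraries share.

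NLRP1, a sensor that also carries a CARD, was the most abundant member per length in AMO1 and H929. In AMO1 it stood at 180, 181 and 188 CPM in libraries labelled SCR and at 163, 164 and 154 CPM in those labelled gN1E, with no overlap. The log2 fold change was -0.19 (interval -0.30 to -0.08), and its adjusted p of 0.0808 became 0.00523 with the replicate block, the lowest of a range that reached 0.438. In H929 NLRP1 was at 171, 163 and 175 CPM against 168, 164 and 164 CPM, and in LP1 at 52.5, 56.3 and 49.2 CPM against 52.4, 54.4 and 63.3 CPM, with overlap in both. The fold changes were -0.05 (interval -0.15 to 0.05) and 0.13 (interval -0.01 to 0.27). All AMO1 comparisons share a difference in depth: libraries labelled gN1E held 28061606 to 49784737 counts and those labelled SCR 53227560 to 66142827. In LP1 the median depth was also lower in gN1E (45406587) than in SCR libraries (64358551), with ranges that overlapped. In H929 it was higher in gN1E (56022788) than in SCR libraries (48902120). The part of depth in the results of any line was not tested.

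Downstream of the caspases, GSDMD (143553207 to 143563062 on chromosome 8) was read in every library and no difference was called. GSDMD stood at 19.5, 15.4 and 17.8 CPM in AMO1 libraries labelled SCR and at 15.4, 16.5 and 13.3 CPM in those labelled gN1E. In H929 the values were 11.9, 12.8 and 11.8 CPM against 12.4, 12.2 and 13 CPM, and in LP1 30.6, 30.2 and 24.5 CPM against 27.1, 27.4 and 25.7 CPM. The groups overlapped in all 3 lines. The log2 fold changes were -0.22 (interval -0.43 to -0.01, adjusted p = 0.388), 0.03 (interval -0.13 to 0.18) and -0.07 (interval -0.22 to 0.08). The cytokine substrates were near 0: IL18 had 0 to 2 reads in every library, IL1B 0 or 1 and IL1A 0.

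The adaptor gene PYCARD was read in the libraries of a single line label. In H929 it was at 3.67, 3.64 and 2.63 CPM in libraries labelled SCR and 3.34, 4.38 and 3.51 CPM in those labelled gN1E, which overlapped (log2 fold change 0.15, interval -0.15 to 0.44). In AMO1 all 6 libraries had 0 PYCARD reads, and in LP1 SCR replicate A had 3 reads and the other 5 libraries had 0. With 3 counts per library as the limit that a count of 0 allows, PYCARD was at least 52-fold higher in H929 than in AMO1. NLRP3 had 0 to 2 reads in every library, but 66% of its exon bases are shared with another annotated gene on the same strand, where read pairs are not counted, so its low count is uncertain. CASP1 was thus read in all 3 lines, with PYCARD at or under the limit in 2 of them.

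**Figure D3:**
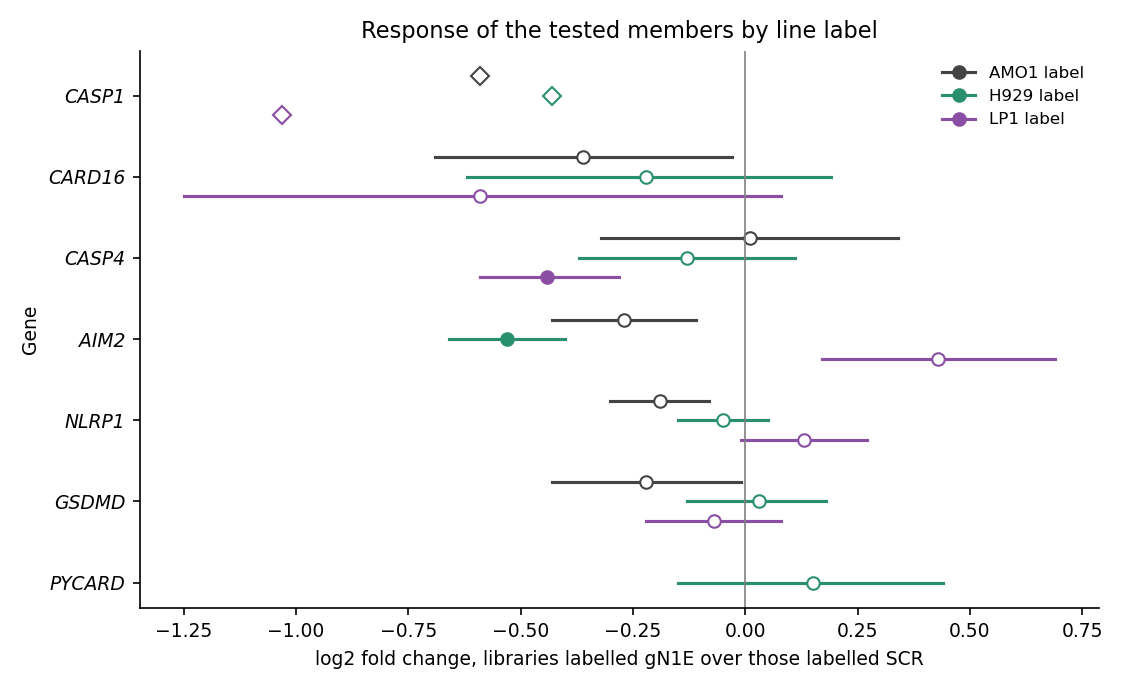
Log2 fold change (x axis) of the tested members, libraries labelled gN1E over those labelled SCR, by gene (y axis) and line label, with 95% confidence intervals and filled points where the adjusted p was under 0.05. Open diamonds are CASP1, which has no test; the filled points are AIM2 in H929 at -0.53 and CASP4 in LP1 at -0.44.

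Counting libraries without a test, all 3 gN1E libraries lay below all 3 SCR libraries for 3 of 5 other members in AMO1 (CARD16, NLRP1 and AIM2), 1 of 6 in H929 (AIM2) and 2 of 5 in LP1 (CASP4 and CARD16). The same order held for 8.5%, 9.57% and 10.6% of all genes tested. In LP1, 1 of 5 (AIM2) lay above, an order found for 7.42% of genes. The median log2 fold change of the other members was -0.22 in AMO1, -0.09 in H929 and -0.07 in LP1, beside -0.016, -0.0096 and -0.0012 over all genes, and these few genes passed a filter that members near 0 did not.

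The members also differed in level between lines, averaged over both labels. Per kilobase of exon, the order in AMO1 was NLRP1 (8.51 CPM per kb), AIM2 (4.05), GSDMD (3.21), CARD16 (1.65), CASP1 (1.32) and CASP4 (0.522). In H929 it was NLRP1 (8.32 CPM per kb), AIM2 (4.44), GSDMD (2.43), PYCARD (2.13), CASP1 (1.27), CARD16 (1.24) and CASP4 (0.946). In LP1 it was GSDMD (5.43 CPM per kb), NLRP1 (2.71), CASP4 (2.61), AIM2 (0.63), CASP1 (0.34) and CARD16 (0.278). These means pool both labels, and the order of some neighbours depends on the label. In LP1 CASP4 (3.01 CPM per kb) stood above NLRP1 (2.61) in the 3 libraries labelled SCR, and NLRP1 (2.81) above CASP4 (2.2) in the 3 labelled gN1E. In H929 the means of CASP1 and CARD16 were 1.46 and 1.31 CPM per kb in SCR and 1.09 and 1.16 in gN1E libraries, with libraries of both orders under each label. Within a library, CARD16 exceeded CASP1 and AIM2 exceeded GSDMD in all 6 AMO1 libraries, and PYCARD exceeded CASP1 in all 6 of H929. PYCARD and GSDMD, and CARD16 and CASP4, had no fixed order in H929, nor did CASP1 and CARD16 in LP1.

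LP1 stood apart from the other lines. Of 7 members tested, 4 differed in level between H929 and AMO1 (44.4% of all genes), 6 between LP1 and AMO1 (75.9%) and 7 between LP1 and H929 (74.6%). The 4 and the 7 include PYCARD, which passed the filter through H929 alone and so had to differ from it; among the other 6 members the counts were 3, 6 and 6. Most genes differed between LP1 and the other lines, so these counts say little about the members alone. Leaving out a library gave 3 to 5 members between H929 and AMO1. The CASP1 level in LP1 had a log2 difference of -2.02 from AMO1 and -1.99 from H929 (edgeR adjusted p = 7.76e-19 and 1.05e-18), while H929 and AMO1 differed by -0.04 (interval -0.21 to 0.14). CARD16 (-2.58 against AMO1), AIM2 (-2.69) and NLRP1 (-1.65) were also lower in LP1. CASP4 went the other way, 2.29 higher in LP1 than in AMO1 and 1.45 higher than in H929 (adjusted p = 1.6e-22 and 1.03e-17). Its start lies at -65.9 kb from that of CASP1. GSDMD was 0.76 and 1.16 higher in LP1.

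**Figure D4:**
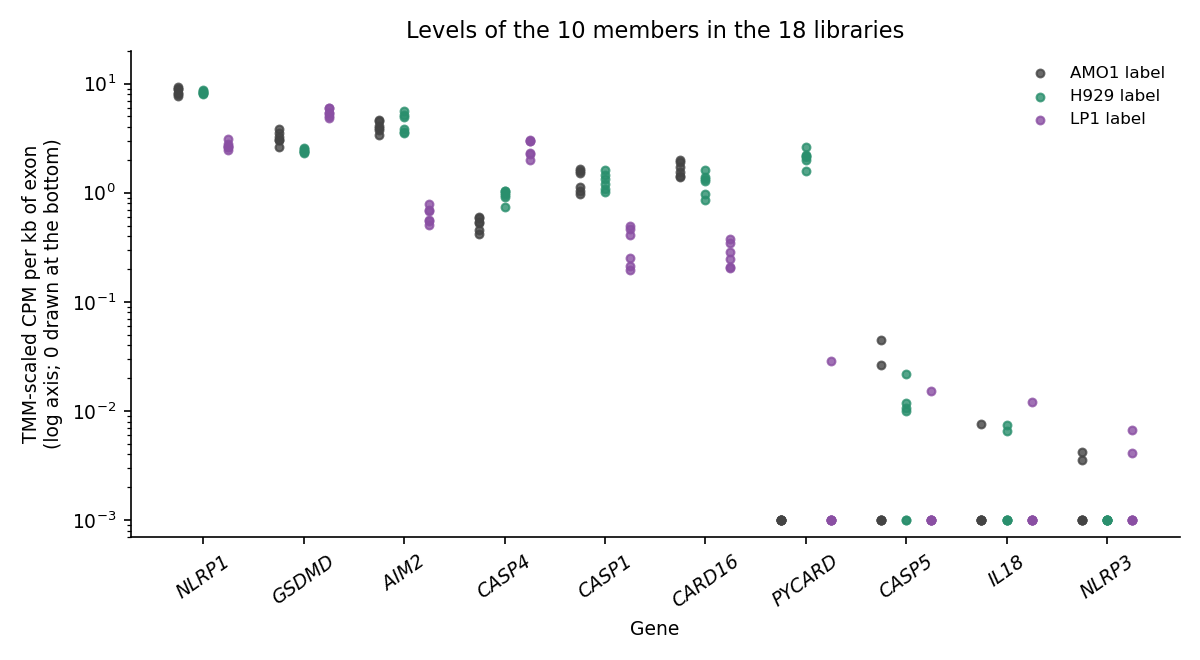
TMM-scaled CPM per kb of exon (y axis, log scale, with 0 drawn at the bottom) of the 10 members (x axis) in the 18 libraries, coloured by line label. CASP4 and GSDMD are highest in the LP1 label, CASP1, CARD16, AIM2 and NLRP1 are lowest there, and PYCARD is read in the H929 label.

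Beyond the members, 62 genes in 6 lists of the pathway were followed. In AMO1 1 of 42 tested genes was called higher and 0 lower, in H929 1 of 43 higher and 7 lower, and in LP1 1 of 42 higher and 1 lower. The shares of all tested genes called were 2.06%, 5.47% and 1.43%, and 0.419%, 1.77% and 0.777% lower. The median log2 fold changes of the lists were -0.05, -0.05 and -0.02. With library size as the only scaling, the split of all genes called moved from 377 higher and 96 lower to 309 and 295 in AMO1, from 870 and 416 to 556 and 743 in H929, and from 152 and 180 to 229 and 130 in LP1.

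The gene called higher in each line was IL1RAP, the accessory chain of the IL-1 receptor. In AMO1 its level was 4.02, 4.03 and 4.81 CPM in libraries labelled SCR and 6.7, 5 and 6.91 CPM in those labelled gN1E. In H929 the values were 2, 2.72 and 2.68 CPM against 3.76, 3.87 and 3.27 CPM, and in LP1 35.3, 35.5 and 34.8 CPM against 43.2, 44.5 and 43.3 CPM. No groups overlapped. The IL1RAP log2 fold changes were 0.54, 0.56 and 0.33 (edgeR adjusted p = 0.0483, 0.0229 and 0.0018), and the call held in 7, 11 and 13 of 14 alternatives, with adjusted p up to 0.302 in AMO1, 0.199 in H929 and 0.0772 in LP1. In AMO1 it was lost without SCR replicate A (0.127), C (0.112) or D (0.0617) or gN1E replicate A (0.141) or D (0.302). In H929 it was lost without SCR replicate A (0.199) or gN1E replicate A (0.0717) or B (0.118).

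Among regulators, TXNIP, whose product binds NLRP3, fell in H929 and LP1. Its level was 153, 145 and 147 CPM against 125, 125 and 131 CPM in H929 and 257, 236 and 228 CPM against 193, 180 and 179 CPM in LP1, without overlap. The log2 fold changes were -0.23 and -0.36 (edgeR adjusted p = 0.0019 and 0.000439). The H929 call held in 13 of 14 alternatives and was lost in the joint fit (0.0517). In AMO1 TXNIP was at 248, 248 and 223 CPM against 241, 291 and 305 CPM, which overlapped (0.22, adjusted p = 0.234, and 0.0045 without gN1E replicate A), and the LP1 response differed from that of AMO1 by -0.60 (adjusted p = 0.000307). P2RX7, the ATP-gated channel upstream of NLRP3, gave -0.21 in H929 (adjusted p = 0.0486), with groups that overlapped and a call in 5 of 14 alternatives, where the adjusted p reached 0.3. The P2RX7 call was lost without SCR replicate A (0.3) or B (0.114) or gN1E replicate A (0.0755) or B (0.276).

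In the interferon list, IRF1, an interferon-induced transcription factor, fell in the H929 label. It was at 39.9, 38.4 and 36.5 CPM in libraries labelled SCR and 28.9, 29.6 and 34.8 CPM in those labelled gN1E, without overlap (log2 fold change -0.31, edgeR adjusted p = 0.00335). GBP4, a guanylate-binding protein, had -0.88 (adjusted p = 0.0395), with a call in 5 of 14 alternatives. The GBP4 call was lost without SCR replicate A (0.11), B (0.0532) or C (0.105) or gN1E replicate A (0.184) or B (0.091). In the same line IFI16, a DNA sensor of the AIM2 family, fell by 0.23 on the log2 scale, and the apoptotic caspase gene CASP8 fell by 0.26 (adjusted p = 0.00259 and 0.000842). The LP1 response was higher than that of H929 by 0.43 for IRF1 and 0.29 for CASP8 (adjusted p = 0.0077 and 0.0419). The CASP8 difference lost its call without 10 of the 18 libraries, with an adjusted p up to 0.185 without H929 gN1E replicate B.

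Promoter sequences from RefSeq (GRCh38.p14) were matched for 5 of the 10 members; CASP1, CARD16, NLRP1, GSDMD and IL18 were not matched. The 250 bases before the RefSeq start of each gene were searched on both strands for GAAA followed by any 2 bases and GAAA, the core of the interferon-stimulated response element, and for TTCNNNGAA, the interferon gamma-activated sequence. Of 35116 promoters, 3.02% held the first and 6.57% the second. AIM2 held 1 match to the first, starting 190 bases before its RefSeq start, and 0 to the second. CASP5, the neighbour of CASP1, held 2 overlapping matches to the first and 1 to the second. CASP4, NLRP3 and PYCARD held 0 of either. The AIM2 and CASP5 windows are shown, on the minus strand at chr1:159076767-159077016 and chr11:105023169-105023418, with matches in capitals; neither overlaps an annotated exon. The RefSeq start of AIM2 is not the outermost start of its GENCODE span, so its window lies inside that span. The windows of CASP4 and PYCARD also lie inside theirs, with 154 and 250 bases in exons of the gene, and that of NLRP3 has 17. A match is a description of letters and not of binding, and a link between matches and responses was not tested.
AIM2: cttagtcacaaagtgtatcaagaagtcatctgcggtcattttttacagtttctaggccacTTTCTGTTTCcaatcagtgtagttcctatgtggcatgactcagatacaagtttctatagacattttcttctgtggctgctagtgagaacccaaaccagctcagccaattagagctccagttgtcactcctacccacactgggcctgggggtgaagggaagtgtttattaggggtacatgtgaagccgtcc
CASP5: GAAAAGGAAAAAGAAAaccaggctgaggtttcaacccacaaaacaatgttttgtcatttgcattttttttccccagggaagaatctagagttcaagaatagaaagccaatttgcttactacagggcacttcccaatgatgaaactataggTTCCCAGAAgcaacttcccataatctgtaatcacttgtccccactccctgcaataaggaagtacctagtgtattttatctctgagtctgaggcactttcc

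Markers of other cell types were read beside the CASP1 results. Of 8 myeloid markers, the summed level in AMO1 was 0.664, 0.66 and 0.521 CPM in libraries labelled SCR and 0.478, 0.238 and 0.393 CPM in those labelled gN1E, and in H929 0.854, 0.49 and 0.451 CPM against 0.525, 0.487 and 0.403 CPM. In the LP1 label it was 10, 10.8 and 8.25 CPM against 4.43, 6.2 and 6.77 CPM, so the groups were separate in AMO1 and LP1, in the order of CASP1, and overlapped in H929. The most abundant in LP1 was CSF1R, at 8.65, 9.39 and 6.57 CPM against 3.24, 4.42 and 5.96 CPM without overlap (log2 fold change -0.84, edgeR adjusted p = 0.155). Over 14 alternatives it ranged from -1.10 to -0.64 with adjusted p from 4.06e-10 to 0.371, and it was called in 4: with no filter (4.06e-10), limma-voom (0.0262), the joint fit (0.0213) and without gN1E replicate D (0.00467). In LP1 the defining monocyte marker CD14 was at 0.0793, 0.0692 and 0.137 CPM against 0.185, 0.194 and 0.0477 CPM on 2 to 10 reads, which overlapped, with a log2 fold change of 0.63 (adjusted p = 0.767) and 0.38 to 1.01 over the alternatives. In AMO1 CD14 was at 0.273, 0.197 and 0.162 CPM against 0.159, 0.136 and 0.0982 CPM on 3 to 16 reads, lower in every gN1E library. The CD14 log2 fold change in AMO1 ranged from -0.83 to -0.41 over the alternatives without a call, and its groups overlapped in H929. The median log2 fold change of the tested myeloid markers was -0.72 in AMO1, -0.44 in H929 and -0.22 in LP1. Below 0 were 4 of 4, 2 of 3 and 4 of 5 of them. In AMO1 0 of the 8 myeloid markers reached 10 reads in any library labelled gN1E. The 4 tested there thus passed the filter through SCR libraries alone, which favours values below 0, so their median and count show little. Of 5 T cell markers the most abundant was CD3E, at 7.4 to 24.9 CPM over all libraries, with CD3D and CD2 at 0 to 2 reads. The T cell sum was 30.1, 28.8 and 31 CPM against 28.5, 24.5 and 27.6 CPM in AMO1 and 14.9, 16.6 and 15.3 CPM against 10.5, 13 and 14.3 CPM in LP1, separate in both, and overlapped in H929. In AMO1 0 of 3 tested T cell markers had all gN1E libraries below all SCR libraries. Their median log2 fold change there was -0.13, with 2 of 3 below 0. Over the alternatives CD3E ranged from -0.27 to -0.12 and TRAC from -0.19 to -0.07 in AMO1, without a call. CD3G had a log2 fold change of 0.14 (0.06 to 0.25 over the alternatives). In LP1 both T cell markers that were tested lay lower in every gN1E library, with a median log2 fold change of -0.59. CD3E gave -0.26 (adjusted p = 0.229, and 0.0766 to 0.65 over the alternatives). TRAC, at 0.92, 1.52 and 0.918 CPM against 0.315, 0.875 and 0.596 CPM, gave -0.92 (adjusted p = 0.188) and was called in 1 of 14 alternatives, with no filter (0.0378), over a range of -1.30 to -0.58 and adjusted p up to 0.599. Whether CSF1R, CD3E or TRAC transcripts have a part in the CASP1 result was not tested.

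Genes with the pattern most like CASP1 were found by Pearson correlation of log2 CPM over the 18 libraries among 13203 genes, as a description that is dominated by the level difference between lines. The highest were RILPL2 (r = 0.973), DNAH7 (0.971), GGACT (0.969), ACTA2 (0.966) and C2orf81 (0.966). After the mean of each line was subtracted they were ZNF608 (r = 0.954), TTN (0.892), PIK3CG (0.887), WIPF1 (0.880) and FDXR (0.875). On that scale the members CASP4 (0.661) and CARD16 (0.657) stood above GSDMD (0.358), PYCARD (0.253), NLRP1 (0.108) and AIM2 (-0.045). Without the subtraction the order was different. CARD16 (0.949), NLRP1 (0.925) and AIM2 (0.910) stood above PYCARD (0.437), and CASP4 (-0.798) and GSDMD (-0.807) were negative. PYCARD, with 0 reads in AMO1 and 3 in LP1, was too low to be among the 13203 genes. Its reads hardly vary within those lines, so both of its values say little about likeness to CASP1. The CASP1 difference between labels that chose the set is part of each of these values. The libraries share a line and a label, so these values describe 6 groups more than 18 independent samples.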

How the data were processed

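The libraries were stranded total RNA, sequenced as read pairs. Per the submitters' processing notes the authors aligned reads with STAR 2.7.10a to hg38 and made the deposited counts with featureCounts 1.6.4 (GENCODE 43, strand setting 2). The deposited files hold raw counts per gene. A gene entered the test of a line if any of that line's 6 libraries held 10 or more of its reads. The tests used R 4.3.3 with edgeR 4.0.16 (TMM, robust quasi-likelihood fit, gN1E against SCR), adjusted over all genes by Benjamini-Hochberg at 0.05. Levels and response differences between lines came from a joint fit of 18 libraries. Alternatives used limma 3.58.1 (voom), DESeq2 1.42.0, other scalings and filters, a replicate block, leaving out each library, and the study's rule. CPM are TMM-scaled over 18 libraries, and fold intervals and floors cover counting error or spread between these libraries only. The tests were tried on simulated counts, where the share of false calls within a line was somewhat above the threshold. Figures were drawn with matplotlib 3.10.9, and tables were made with pandas 2.3.3, scipy 1.17.1 and numpy 2.4.6 under Python 3.11.15.

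Named genes were NEAT1, the members, list genes called in at least 1 line and the 5 most correlated with CASP1 on each scale; CASP1P2, CASP12, CSF1R, CD14, CD3E, CD3G, TRAC, CD3D, CD2, SDC1 and the immunoglobulin genes were named beside them as neighbours or markers. Counts over lists include genes that are not named, and 1 called list gene is not reported here. The members and lists were chosen with earlier results of these data known. In AMO1 the replicate letters, which come from the labels, were taken to pair the samples. Deviations of same-letter libraries there correlated at 0.272, 0.2 and 0.14, all above 0.1. In H929 and LP1 the same-letter values did not all exceed 0.1. Libraries of different letters reached 0.168 in AMO1 (SCR C with gN1E D), 0.172 in H929 and 0.225 in LP1, so the pairing is uncertain. Libraries of a group differed by more than sampling noise, with chi-square per gene from 6.25 to 39.8.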

Additional observations from a re-analysis of the deposited data

Results flagged for a closer look

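AIM2 is listed because its response differed between lines in the joint fit. The response in LP1 was 0.68 above that in AMO1 and 0.92 above that in H929 (log2, edgeR adjusted p = 0.00201 and 1.36e-05), with all 3 gN1E libraries above all 3 SCR libraries in LP1 and below them in the other lines.

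Of the pathway lists, TXNIP responded by -0.60 in LP1 relative to AMO1 (adjusted p = 0.000307). Relative to H929, the LP1 response was higher by 0.43 for IRF1 (adjusted p = 0.0077) and by 0.29 for CASP8 (0.0419). Over 22 alternatives the differences of TXNIP and IRF1 were called in 22 and that of CASP8 in 11. Groups of 3 libraries were not tested for outlying values.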

How the results depend on the processing

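The CASP1 log2 fold change, whose direction chose the set, ranged over 14 alternatives per line from -0.66 to -0.55 in AMO1, -0.50 to -0.36 in H929 and -1.14 to -0.95 in LP1, which is no sign of stability. CASP4 in LP1 and AIM2 in H929 kept their calls in all 14. In AMO1, where 0 other members were called, 2 were called with library size only, with no filter and with the replicate block (paired), 1 with DESeq2 and 1 in the joint fit, namely NLRP1, AIM2 or both. The joint fit called 2 members in LP1. The study's rule here is that of its supplementary methods, adjusted p under 0.1 with a 1.5-fold change. Its Results instead gave AMO1 calls at an adjusted p under 0.05. The rule called 0 members in H929 and 0 in LP1, since AIM2 in H929 and CASP4 in LP1 changed less than 1.5-fold.

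The count of pathway genes in AMO1 went from 1 to 2 with no filter or the replicate block, and to 0 with 10 reads in 3 libraries, limma-voom or the study's rule, and leaving out a library gave 0 to 1 (0 without SCR A, C or D or gN1E D). In H929 it went from 8 to 5 in the joint fit and 1 under the study's rule, with 5 to 11 when a library was left out. In LP1 it went from 2 to 1 in the joint fit and 0 under the study's rule. Members whose response differed between LP1 and AMO1 went from 1 to 2 with library size only and DESeq2, and 1 to 2 when a library was left out, an alternative chosen after seeing the data. The cause was not tested. DESeq2 gave no adjusted p for CARD16 in LP1, which is left without a value.

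Small uncalled values changed sign. CASP4 in AMO1 gave -0.03 with library size only and 0.00 with no filter, and -0.12 to 0.13 without a library. CASP4 in H929 ranged from -0.23 to 0.01, P2RX7 in AMO1 from -0.15 to 0.00 and IFI16 in LP1 from -0.02 to 0.06. IFI16 in LP1 was -0.01 in the joint fit and GSDMD in H929 was -0.02 with library size only. The CASP1 value in LP1 rests on 35 to 42 reads in each library labelled gN1E.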
